A study of Mus musculus with 6 samples.

Results

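Alx1, Alx4, Prrx1, Prrx2 and Shox2 encode homeodomain transcription factors of the paired type that mark skeletogenic mesenchyme. They were measured here in single mouse embryos, in the front end of the developing lower jaw (the distal mandible). The genes were selected by their symbols in the deposited tables: 5 genes of 21827 listed, each on 1 row. All 5 passed the filter used for testing, at least 1 TPM (an abundance scaled for transcript length and for the total of the library) in at least 3 of the 6 libraries, as did 12152 genes in all.

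The series holds 3 libraries labelled mutant (Msx1f/f;Msx2f/f;Rosa26mTmG/+;Hand2-Cre) and 3 labelled control (Msx1f/+;Msx2f/f;Rosa26mTmG/+;Hand2-Cre), all at E10.75 (in days of gestation), with 1 embryo per label in each of 3 litters. Every embryo therefore carries the Cre, which acts where Hand2 is active, the mTmG recombination reporter and 2 floxed copies of Msx2. No embryo is thus free of floxed Msx alleles. The tissue was dissected under fluorescence and not sorted, so it holds other cells besides recombined mesenchyme.

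Msx1, the homeobox gene whose floxed dose separates the labels, goes against them in litters 2 and 3. Under the mutant label Msx1 was at 1.90, 78.8 and 73.3 TPM in litters 1, 2 and 3, against 84.1, 2.61 and 1.99 TPM under the control label. Below, the low-Msx1 libraries (under 10 TPM) are the mutant-labelled one of litter 1 and the control-labelled ones of litters 2 and 3. The high-Msx1 libraries (over 50 TPM) are their littermates. Because the pairs follow a measured level and not the labels, their values are a description, and no test was made on them.

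Genes of this kind bind DNA through a homeodomain that recognises a TAAT core, often as dimers on palindromic sites. In mice Alx genes act in the mesenchyme of the midface and distal jaw, where loss of several members leaves midline defects. Prrx1 and Prrx2 overlap in arch mesenchyme, and mice lacking both have a reduced mandible and less hedgehog signalling in the arch. Shox2 is best known in mice for growth of the proximal limb, the palate and the pacemaker region of the heart.

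The tissue identity was checked on marker genes. The 8 cranial mesenchyme markers, among them Twist1 (157 to 187 TPM) and Pdgfra (81.2 to 108 TPM), were above 1 TPM on average, as were the 7 markers of the distal mandibular arch, among them Hand2 (210.0 to 261 TPM). All 10 epithelial and all 7 endothelial markers were also above 1 TPM. Of the 6 neuronal markers 3 were (summed level 12.2 to 14.3 TPM in the low-Msx1 libraries and 13.3 to 16.3 TPM in the high-Msx1 libraries, with Isl1 the largest part). Libraries stood apart in litter 1. Globin transcripts made up 3.06% of all listed TPM in the low-Msx1 library and 0.958% to 1.32% in the other 5 libraries. Mitochondrial transcripts made up 8.03% in the high-Msx1 library and 6.02% to 6.51% in the others. In bulk tissue, fewer cells of a type and less RNA per cell cannot be told apart.

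The genes kept a fixed order of levels down to the lowest pair. TPM averaged 146 ± 5.76 for Prrx1, 76.3 ± 4.76 for Prrx2, 29.4 ± 2.31 for Alx4, 7.85 ± 1.63 for Alx1 and 6.98 ± 4.36 for Shox2 (SD over 6 libraries). The ranges of Prrx1, Prrx2 and Alx4 did not meet, whereas Alx1 (5.31 to 9.60 TPM) and Shox2 (2.38 to 13.7 TPM) overlapped. Prrx1 ranked above 95.1% of the genes tested and Shox2 above 34.4%.

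The genes also differed in how steady they were from embryo to embryo. The SD of log2(TPM + 1) over the 6 libraries was 0.06 for Prrx1, 0.09 for Prrx2, 0.11 for Alx4, 0.28 for Alx1 and 0.80 for Shox2. Among 8896 genes with a mean of at least 5 TPM, 2.80% had a smaller SD than Prrx1, 13.5% a smaller SD than Prrx2, 25.4% a smaller SD than Alx4, 86.4% a smaller SD than Alx1 and 99.5% a smaller SD than Shox2. Thus Prrx1 was among the steadiest of these genes and Shox2 among the most variable. These shares were not matched for level, and Prrx1 was the most abundant of the 5 genes and Shox2 the least. Counting noise was not separated from differences between embryos, and the 6 libraries include low- and high-Msx1 ones.

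**Figure D1:**
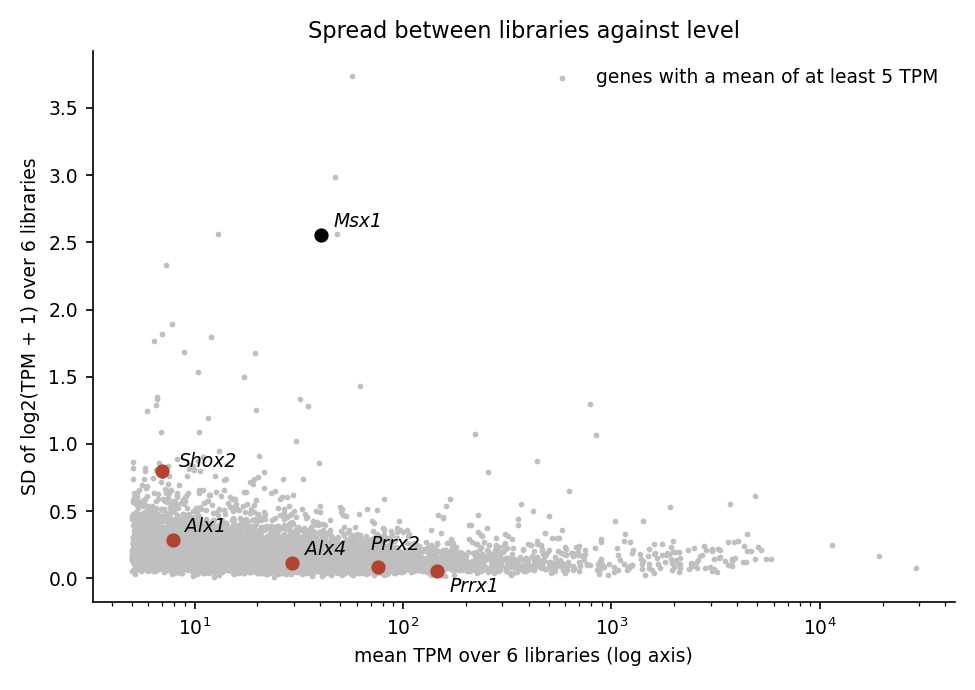
Mean TPM over 6 libraries (log axis) set against the SD of log2(TPM + 1) over the same libraries, for 8896 genes with a mean of at least 5 TPM (grey), the 5 genes described here (red) and Msx1 (black). Prrx1 lies near the lower edge at 0.06, and Shox2 lies above the bulk of genes at 0.80.

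Shox2, the short-stature homeobox gene, had the widest differences between littermates, but not in the same direction in every litter. It had 3.61, 6.69 and 2.38 TPM in the low-Msx1 libraries of litters 1, 2 and 3, against 10.5, 4.95 and 13.7 TPM in their high-Msx1 littermates. The low-Msx1 library was below its littermate in litters 1 and 3 and above it in litter 2, and the groups overlap. In linear terms it was 2.92-fold lower in litter 1, 1.35-fold higher in litter 2 and 5.77-fold lower in litter 3. The median of the 3 within-litter differences was -1.32 on the log2(TPM + 1) scale, and 0.146% of the 8896 genes had a median further from 0. Without litter 3 that median was -0.48, and without litter 2 it was -1.72.

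For Shox2 the authors' deposited table lists a log2 fold change at -1.23 ± 0.50 (SE as deposited), with an unadjusted p of 0.0143 and an adjusted p of 1.00. That table does not name its direction. Msx1 stands at -5.19 ± 0.26 in the authors' deposited table, so a negative sign there means lower where Msx1 was lower. In linear terms this Msx1 value is 36.5-fold, beside 44.2-fold, 30.2-fold and 36.8-fold between the littermates of litters 1 to 3. Between the labels given above, Msx1 differed by 1.41 ± 1.95 on the log2 scale (SE by limma). The deposited comparison thus appears to set low-Msx1 against high-Msx1 libraries, and not the labels given above. The table rests on the same libraries as the within-litter values and is no second measurement. An unadjusted p under 0.05 was listed for 1.85% of all genes that the authors' deposited table tested, and for 0.971% with a negative sign.

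Shox2 lies on chromosome 3 (66971727 to 66981771, minus strand, GRCm38) and shares its first 382 bases with the start of Rsrc1, a splicing-related gene on the other strand. Whether reads were assigned by strand is not given in the sources used here. Rsrc1 had 35.0, 29.6 and 42.0 TPM in the low-Msx1 libraries and 34.2, 40.7 and 37.4 TPM in the high-Msx1 libraries of litters 1 to 3. Rsrc1 was thus lower in the low-Msx1 library in litter 2 alone, the litter in which Shox2 was higher there. In litter 1, however, Rsrc1 was only 1.02-fold higher in the low-Msx1 library, where Shox2 was 2.92-fold lower. A link between these genes was not tested.

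RefSeq start regions (GRCm38.p6) were matched for 3 of the 5 genes: Prrx1, Prrx2 and Shox2. Those of Shox2 and Prrx1 are shown because these genes mark the extremes of variation, and capitals mark the homeodomain core TAAT on either strand (written ATTA where it lies on the other strand). The Shox2 window is chr3:66981772-66982021 (minus strand), the 250 bases before its start. This window lies on the side to which Rsrc1 runs on from the shared bases, and exons of Rsrc1 were not left out. The Prrx1 window is chr1:163313711-163313900 (minus strand), limited to the 190 bases outside annotated exons of Prrx1. The window of Prrx2 starts, at its most upstream base, inside an annotated exon of that gene and is not printed.
Shox2: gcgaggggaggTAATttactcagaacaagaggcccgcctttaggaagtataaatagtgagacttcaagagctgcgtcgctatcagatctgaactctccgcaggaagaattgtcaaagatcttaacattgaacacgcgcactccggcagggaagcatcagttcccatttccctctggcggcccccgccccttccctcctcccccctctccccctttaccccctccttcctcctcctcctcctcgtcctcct
Prrx1: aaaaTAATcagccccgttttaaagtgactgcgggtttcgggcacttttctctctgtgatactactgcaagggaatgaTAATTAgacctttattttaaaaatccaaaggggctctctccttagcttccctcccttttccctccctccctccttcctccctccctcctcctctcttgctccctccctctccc
The Shox2 window held 1 TAAT core, as at least 1 was held by 54.9% of 32851 windows of that length. It also held 1 TATAAA on the printed strand, a letter run found in 7.59% of those windows. The Prrx1 window held 3 cores, of which a TAAT and an ATTA overlap within TAATTA, and 12.9% of windows of its length held at least 3. These are matches of letters and not measured binding.

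Alx1, a homeobox gene required in mice in the cranial mesenchyme for closure of the forebrain, was below its littermate in each litter. It had 6.63, 8.01 and 5.31 TPM in the low-Msx1 libraries of litters 1, 2 and 3, against 9.60, 8.24 and 9.29 TPM in the high-Msx1 libraries. The groups do not overlap, but the nearest libraries are the littermates of litter 2, at 8.01 and 8.24 TPM. The low-Msx1 library was 1.45-fold lower in litter 1, 1.03-fold lower in litter 2 and 1.75-fold lower in litter 3. In the authors' deposited table Alx1 stood at a log2 fold of -0.46 ± 0.31, with an unadjusted p of 0.138 and an adjusted p of 1.00. Alx1 lies on chromosome 10 (102998707 to 103030215, minus strand) and shares 737 bases with the long non-coding gene Gm17028 on the same strand, which was not analysed here.

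Alx4, whose loss in mice gives extra digits and skull defects, showed the same order with smaller differences. It had 25.6, 29.7 and 28.2 TPM in the low-Msx1 libraries and 31.1, 29.9 and 32.1 TPM in the high-Msx1 libraries of litters 1 to 3. The groups do not overlap, and litter 2 again gave almost equal littermates. The low-Msx1 library was 1.22-fold lower in litter 1, 1.01-fold lower in litter 2 and 1.14-fold lower in litter 3. Alx4 stood at a log2 fold of -0.16 ± 0.14 in the authors' deposited table, with an unadjusted p of 0.240 and an adjusted p of 1.00. Alx4 lies on chromosome 2 (93642384 to 93681339, plus strand), where 20312 bases of it overlap Ext2, a heparan sulfate polymerase gene on the other strand. Ext2 had 20.3, 20.7 and 43.6 TPM in the low-Msx1 libraries and 33.0, 29.3 and 19.5 TPM in the high-Msx1 libraries. It was lower in litters 1 and 2 but higher in litter 3, unlike Alx4.

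Prrx1, the most abundant of the genes, differed little between littermates and always in the same direction. It had 139.5, 143 and 142 TPM in the low-Msx1 libraries and 151, 147 and 155 TPM in the high-Msx1 libraries of litters 1 to 3. The groups do not overlap, and the low-Msx1 library was 1.08-fold, 1.03-fold and 1.09-fold lower. The log2 fold of Prrx1 in the authors' deposited table was -0.09 ± 0.10, with an unadjusted p of 0.363 and an adjusted p of 1.00. Prrx1 lies on chromosome 1 (163245119 to 163313710, minus strand) and overlaps 3 non-coding genes, which were not analysed here.

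Prrx2, the close relative of Prrx1, went the other way. It had 74.9, 83.2 and 80.6 TPM in the low-Msx1 libraries and 73.6, 74.9 and 70.3 TPM in the high-Msx1 libraries of litters 1 to 3. The groups do not overlap, though their nearest values, 74.95 and 74.86 TPM, are almost equal. The low-Msx1 library was 1.02-fold, 1.11-fold and 1.15-fold higher. Prrx2 was listed in the authors' deposited table at a log2 fold of 0.13 ± 0.18, with an unadjusted p of 0.493 and an adjusted p of 1.00. Prrx2 lies on chromosome 2 (30834972 to 30881251, plus strand) and overlaps no other annotated gene.

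**Figure D2:**
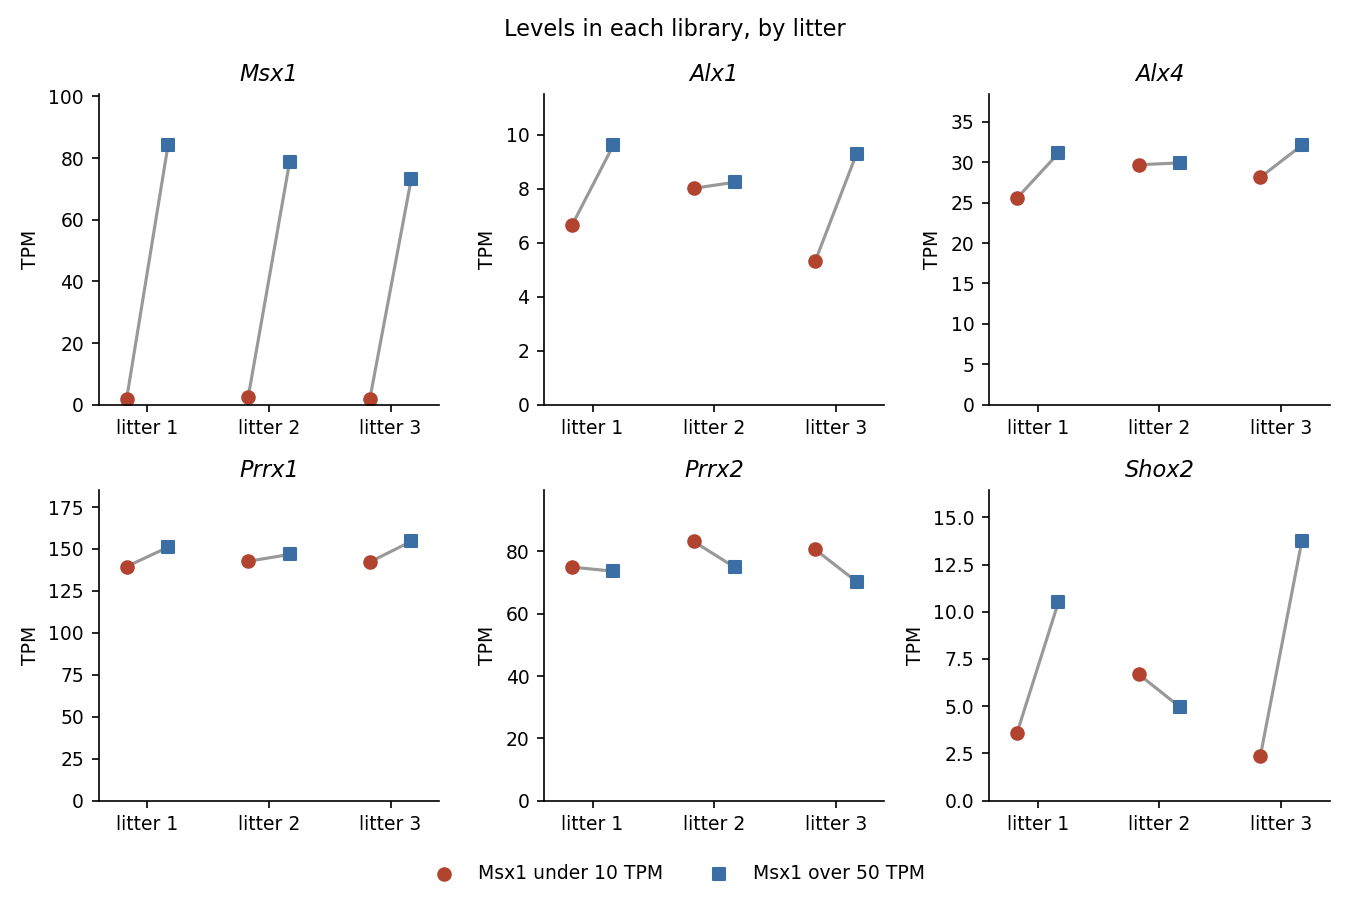
TPM of Msx1 and the 5 homeobox genes in each library, by litter, with lines joining littermates; red circles are libraries with Msx1 under 10 TPM and blue squares libraries with Msx1 over 50 TPM. Alx1, Alx4 and Prrx1 are lower and Prrx2 is higher in the low-Msx1 library of every litter, whereas Shox2 is lower in litters 1 and 3 and higher in litter 2.

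Over the 5 genes, 4 stood on the same side of the littermate in all 3 litters, where 22.7% of all genes tested did. Of these, 3 were below, as were 11.9% of all genes tested, and Prrx2 was above, as were 1314 of the 12152 genes. The low- and high-Msx1 libraries did not overlap for 4 of the 5, with 3 lower and 1 higher. Of all genes tested, 4.95% did not overlap and were lower, and 4.36% did not overlap and were higher. The median within-litter difference over the 5 genes was -0.18 on the log2(TPM + 1) scale, beside -0.0022 over all genes tested. None of the 5 was called by the authors' deposited table at an adjusted threshold of 0.05, as 0.0961% of its genes were (0.0343% with a negative sign), and 1 of 5 (Shox2) was under an unadjusted p of 0.05. The median of the log2 folds that the authors' deposited table lists was -0.16 for the 5 genes and 0.0033 for all genes tested.

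The size of the small differences depends on the common level of each library. The median gene of all tested differed by -0.09 in litter 1, 0.01 in litter 2 and 0.08 in litter 3 between littermates on the log2(TPM + 1) scale. Prrx1 differed by -0.11, -0.04 and -0.12, and Prrx2 by 0.03, 0.15 and 0.19. After scaling by median of ratios, which removes the shift of the median gene, Prrx1 differed by -0.01, -0.05 and -0.21 and Prrx2 by 0.13, 0.14 and 0.10. The directions of both stood, while the litter with the smallest difference changed.

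**Figure D3:**
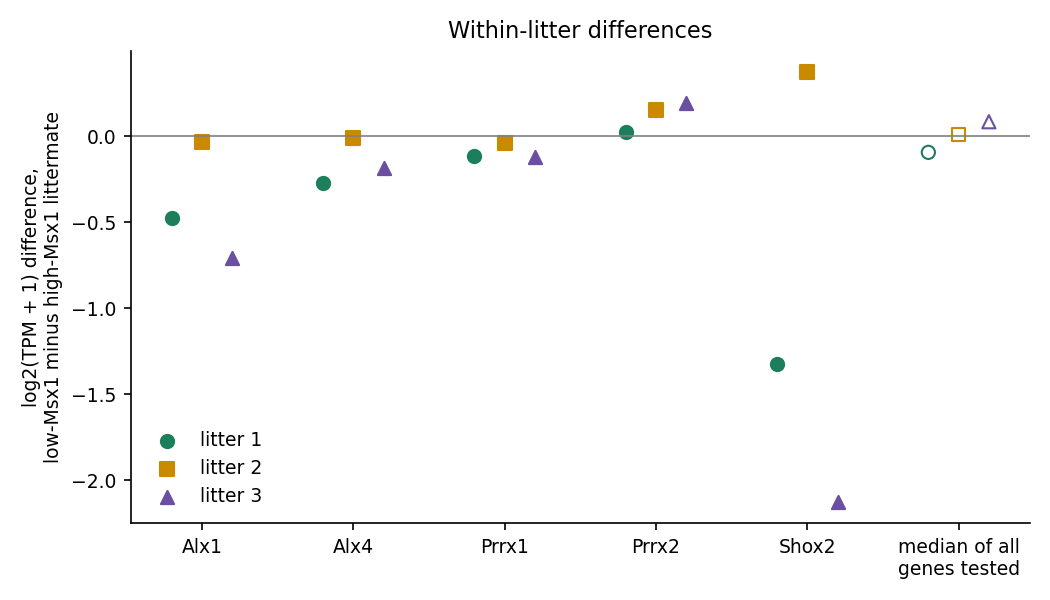
Difference in log2(TPM + 1) between the low-Msx1 library and its high-Msx1 littermate, for each gene and litter (filled symbols), beside the median over all genes tested (open symbols). Litter 2 lies within 0.05 of 0 for Alx1, Alx4 and Prrx1, and Shox2 ranges from -2.12 in litter 3 to 0.37 in litter 2.

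Ratios of genes within a library do not depend on its scaling. The Prrx1 to Prrx2 ratio of TPM was 1.86, 1.71 and 1.76 in the low-Msx1 libraries and 2.05, 1.96 and 2.20 in the high-Msx1 libraries of litters 1 to 3. The groups do not overlap, but the same held for the ratio to Prrx2 of 16.3% of the 12151 other genes tested, and the reverse for 1.37%. The Alx4 to Alx1 ratio was 3.86, 3.71 and 5.30 in the low-Msx1 libraries and 3.24, 3.63 and 3.46 in the high-Msx1 libraries. Here too the groups do not overlap, as for the ratio to Alx1 of 40.8% of the other genes tested. The sum of Prrx1 and Prrx2, the summed level of both paralogs, was 214, 226 and 223 TPM in the low-Msx1 libraries and 225, 222 and 225 TPM in the high-Msx1 libraries, and the groups overlap.

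**Figure D4:**
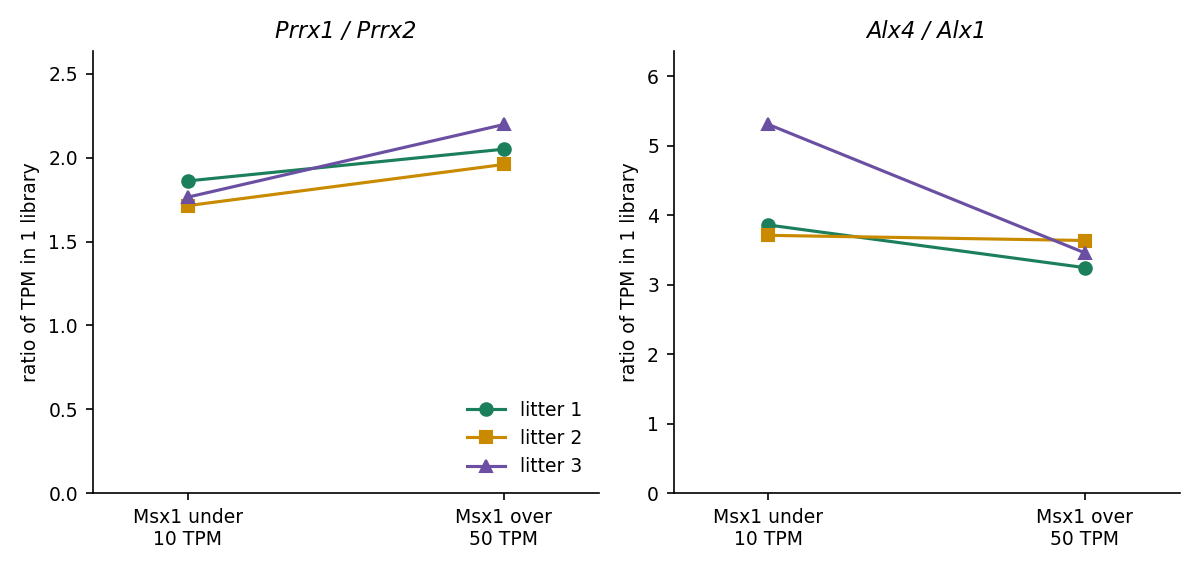
Ratio of TPM within each library, Prrx1 over Prrx2 (left) and Alx4 over Alx1 (right), with lines joining littermates. The Prrx1 to Prrx2 ratio is 1.71 to 1.86 in the libraries with Msx1 under 10 TPM and 1.96 to 2.20 in those with Msx1 over 50 TPM.

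Compared by the labels as deposited, none of the genes was called. With limma on log2(TPM + 1), 0 of 12152 genes (0%) passed an adjusted p of 0.05, and 817 (6.72%) were under an unadjusted p of 0.05, none of them among the 5. Shox2 averaged 7.43 ± 5.50 TPM in the libraries labelled mutant and 6.53 ± 4.08 TPM in those labelled control (SD, n = 3 each), and differed by 0.14 ± 0.53 on the log2 scale (SE; adjusted p = 0.958 by limma). Prrx2 had the smallest p of the 5 genes. It averaged 73.4 ± 2.66 TPM under the mutant label and 79.2 ± 4.95 TPM under the control label, and differed by -0.11 ± 0.08 on the log2 scale (SE; adjusted p = 0.769 by limma). Alx1, Alx4 and Prrx1 differed by 0.09 ± 0.21, -0.03 ± 0.11 and 0.02 ± 0.07 (SE; adjusted p = 0.932, 0.960 and 0.968 by limma). The difference of Prrx2 was larger than its SD within either label, at an unadjusted limma p of 0.215, and those of the other 4 genes were smaller than theirs. Each label mixes low- and high-Msx1 libraries.

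Other paired-type homeobox genes were few in this tissue. Of 26 examined, 25 were found by symbol, 10 were listed at 0 in every library and 4 passed the filter: Pitx1, Gsc, Pax3 and Otx1. Of the 4, Pax3 was below the littermate in all 3 litters without overlap, Pitx1 was above in all 3, and the other 2 were mixed. Of all genes tested, 22.7% stood on the same side in all 3 litters and 4.95% were lower without overlap. None passed the adjusted threshold of the authors' deposited table.

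Pitx1, a factor of the lower jaw and hindlimb, ranged from 129 to 161 TPM in the low-Msx1 libraries and from 106 to 139 TPM in the high-Msx1 libraries, and the groups overlap. The authors' deposited table has it at a log2 fold of 0.23 ± 0.15 (unadjusted p = 0.114). Gsc, the goosecoid gene of arch mesenchyme, ranged from 55.2 to 75.8 TPM in the low-Msx1 libraries and from 43.9 to 58.6 TPM in the high-Msx1 libraries, at 0.29 ± 0.24 in the same deposited table (unadjusted p = 0.232). Pax3, a gene of neural crest and muscle progenitors, had the smallest p of the list. It was at 1.27 to 1.31 TPM in the low-Msx1 libraries and 1.74 to 2.69 TPM in the high-Msx1 libraries, and at -0.84 ± 0.46 in the authors' deposited table (unadjusted p = 0.0685). Otx1, better known from the forebrain, was at 0.587 to 2.49 TPM in the low-Msx1 libraries and 1.27 to 2.12 TPM in the high-Msx1 libraries, and at -0.24 ± 0.73 in the authors' deposited table.

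The summed level of 6 muscle progenitor markers was 3.69, 2.74 and 4.02 TPM in the low-Msx1 libraries and 5.03, 3.82 and 3.53 TPM in the high-Msx1 libraries of litters 1 to 3. The largest part of the sum was Tcf21, at 2.39, 1.16 and 2.91 TPM in the low-Msx1 libraries and 3.74, 2.17 and 2.09 TPM in the high-Msx1 libraries, a gene of other mesenchyme as well. Myf5, a defining marker, had 0.218, 0.779 and 0.472 TPM in the low-Msx1 libraries and 1.01, 0.685 and 0.732 TPM in the high-Msx1 libraries. Both Tcf21 and Myf5 thus changed sides between litters, and the defining markers Myf5, Myod1 and Myf6 did not exceed 1.01, 0.491 and 0.380 TPM in any library. Their part in the values of Pax3 was not tested.

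**Figure D5:**
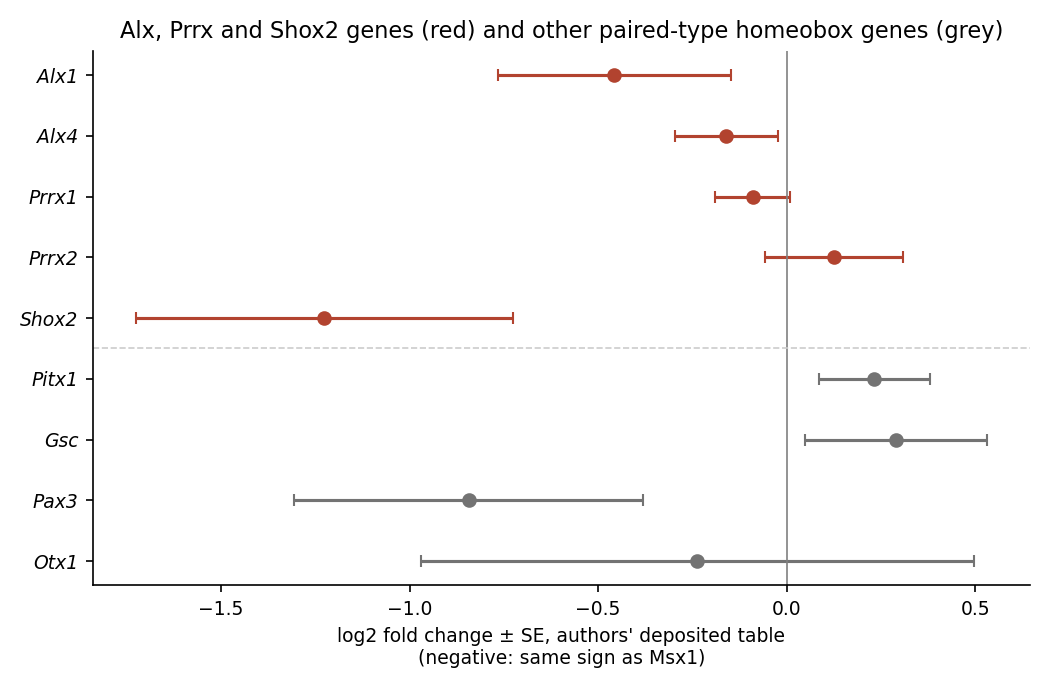
Log2 fold change with its standard error from the authors' deposited table for the 5 genes (red) and the 4 other paired-type homeobox genes that passed the filter (grey); negative values have the sign of Msx1. Shox2 is the furthest from 0 at -1.23, and no gene shown was called at an adjusted threshold of 0.05.

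Hedgehog genes of the arch, a pathway reduced in mice lacking both Prrx1 and Prrx2, were examined as a list of 7. Of these 6 passed the filter and 1 was below the littermate in all 3 litters, beside 11.9% of all genes tested, while none passed the adjusted threshold of the authors' deposited table. The gene below in all 3 was Foxf2, a forkhead gene, named after its values were seen. It was at 6.79 to 10.1 TPM in the low-Msx1 libraries and 11.2 to 12.7 TPM in the high-Msx1 libraries, without overlap. Of all genes tested, 4.95% were likewise lower without overlap. Ptch1, the hedgehog receptor and target gene, had 36.3 to 46.3 TPM in the low-Msx1 libraries and 44.3 to 47.9 TPM in the high-Msx1 libraries, and was at -0.21 ± 0.11 in the authors' deposited table (unadjusted p = 0.0555). Foxf1 was at 24.9 to 30.7 TPM in the low-Msx1 libraries and 26.0 to 29.4 TPM in the high-Msx1 libraries. The summed level of the 7 genes was 112, 93.2 and 113 TPM in the low-Msx1 libraries and 119.6, 117 and 116 TPM in the high-Msx1 libraries of litters 1 to 3, lower in every litter and without overlap. The share of such sums over all genes was not worked out, and the median gene also differed by -0.09 in litter 1. Of the 6 genes tested, 5 were mixed. Gli1, also named after its values were seen, had 36.5, 18.1 and 19.0 TPM in the low-Msx1 libraries and 25.8, 28.9 and 24.2 TPM in their littermates. Over the 6 genes the median log2 fold in the authors' deposited table was -0.20.

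The genes with the most similar profiles over the 6 libraries were found by the root mean square difference between centred log2(TPM + 1) values. The candidates were 8673 of the 8896 genes with a mean of at least 5 TPM. The 5 genes themselves, predicted genes, pseudogenes and genes with clone or accession-style names were left out. For Alx1 they were Ppil1, Zfp866 and Rbm7, at 0.058 to 0.085, beside a median of 0.303 over the candidates. For Alx4 they were Triap1, Tm9sf4 and Smarca1, at 0.025 to 0.033. For Prrx1 they were Hnrnpa1, Uqcrfs1 and Glrx3, at 0.022 to 0.025. For Prrx2 they were Carhsp1, Rpl21 and Espl1, at 0.017 to 0.023. For Shox2 they were Tmsb15b1, Ndufa5 and Wdr25, at 0.343 to 0.397, beside a median of 0.753 over its candidates. The nearest candidate of Shox2 lay further off than those of the other 4 genes. The measure grows with the spread of the gene itself, which was widest for Shox2. Within the family the nearest pair was Alx4 and Prrx1, at 0.061, and the most distant was Prrx2 and Shox2, at 0.781. With 6 libraries and so many candidates, such likeness is a description only.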

How the data were processed

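Polyadenylated RNA was sequenced from 6 distal mandibles. The authors deposited TPM per gene and library and 1 comparison table. Per the file headers, the deposited table holds p-values, log2 fold changes, their standard errors and Wald ratios (both kept as scores) and a base mean (a signal averaged over libraries). The submitters' processing notes name Salmon 1.5.2, DESeq2 and mm10; for strand handling and annotation nothing is given in the sources used here. Listed TPM summed to 716208 to 735601 per library. Depth per library is unknown, so no counting interval was worked out.

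Labels were compared with limma 3.58.1 (R 4.3.3; variance trend, robust moderation) on log2(TPM + 1), with Benjamini-Hochberg adjustment over 12152 genes. The fit was tested on simulated data first. Fold changes on this scale understate changes of low genes. Each label has 3 embryos, and the libraries differed in every pair (Pearson r across genes 0.975 to 0.982). The design text puts 1 embryo of each genotype in every litter, so litter pairs the libraries; deviations of littermates correlated at -0.05, -0.03 and -0.03. Positions come from GENCODE M21 (GRCm38). The genes, lists and naming rule (the 4 most abundant and 2 lowest-p genes of the paired-type list, 2 and 1 of the hedgehog list, the 3 nearest profiles) were chosen with earlier results of these data known. Alternatives covered offset, filter, scaling, moderation, litter block and left-out libraries. Some genes of the lists are not reported here and were left out of their counts and sums.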

Additional observations from a re-analysis of the deposited data

How the results depend on the processing

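The count of genes called between the labels was 0 under every setting that used all 6 libraries, including the replicate block (litter as a paired term: 0 higher, 0 lower), which changed no call for the 5 genes. Leaving out each library gave 0 to 1 gene higher (1 without the control-labelled library of litter 1) and 0 to 1 lower (1 without its mutant-labelled littermate). No setting called any of the 5 genes between the labels, and their signs there were not stable, except for Prrx2. Each label mixes low- and high-Msx1 libraries, and in the main fit Msx1 was not called either (1.41 ± 1.95, SE; adjusted p = 0.887 by limma). The label comparison therefore cannot show how the 5 genes differ by Msx1 level. Alx4 turned positive with median-of-ratios scaling (0.041) and quantile normalization (0.039), and ranged from -0.10 to 0.063 over the left-out libraries. Over those, Alx1 ranged from -0.12 to 0.25, Prrx1 from -0.022 to 0.052 and Shox2 from -0.35 to 0.54, while Prrx2 stayed negative, from -0.16 to -0.07.

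Within litters, the median difference of Prrx1 was -0.049 with median-of-ratios scaling and -0.11 as deposited. The middle value was that of litter 2 with this scaling and that of litter 1 as deposited. The other 4 genes moved by less than the SD over the 3 litters with this scaling and with the other offset. Leaving out a litter cannot move a median of 3 values beyond their SD, so those runs are no check by this measure. Without litter 3 the median of Shox2 was -0.48, and without litter 2 it was -1.72. The counts of genes below (3) and above (1) the littermate in every litter stood under both scalings; without litter 2 the count below was 4, with Shox2 added. These counts and their alternatives were chosen after the data were seen. Depth per library is unknown, so no counting error was worked out for Alx1 and Shox2, the lowest of the 5. In DESeq2 output the base mean is a mean of scaled counts over libraries. In the authors' deposited table it was 93.5 for Shox2, 152 for Alx1, 446 for Prrx2, 1189 for Alx4 and 8233 for Prrx1. Prrx2 thus rested on fewer counts than Alx4 despite its higher TPM.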
